A study of Mus musculus with 5 samples.

Results

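ZFP541 ChIP-seq peaks were examined at the genes that encode ZFP541 itself, its partner KCTD19 and the subunits of the mitotic deacetylase complex (MiDAC). The 7 genes, Zfp541, Kctd19, Dnttip1, Mideas, Trerf1, Hdac1 and Hdac2, were chosen by name from 21775 protein-coding genes, and peaks were collected over each gene body and 10 kb on each side. Chromatin came from pachytene and diplotene spermatocytes enriched by STA-PUT (settling of cells in an albumin gradient under gravity) from testes of adult C57BL/6 mice, and was cross-linked with 1% formaldehyde. The wild-type group had 2 ChIP libraries, the Zfp541-/- group had 1, and all 3 used a rabbit antibody raised against residues 1 to 300 of ZFP541. A further 2 wild-type input libraries were not analysed here. The labels do not say how many animals were pooled, whether the replicates came from separate animals, or which part of Zfp541 the knockout allele removes. Peak lists hold no expression values, so the labelled cell type was not checked against marker genes.

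MiDAC is a histone deacetylase complex in which HDAC1 or HDAC2, the catalytic subunits, is held by a scaffold with an ELM2-SANT domain together with DNTTIP1, which organises the assembly. MIDEAS is the best known scaffold, and TRERF1 and ZFP541 carry a related ELM2-SANT region. ZFP541 is made in spermatocytes and spermatids, binds KCTD19, a protein with BTB-like domains, and works with HDAC1 and HDAC2 in the germ cells that leave the pachytene stage.

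Promoter sequences are shown for starts at which the libraries had or lacked peaks. RefSeq promoter windows of GRCm38.p6 (the assembly of mm10), from 250 bases before to 50 after a start, were matched for 5 of the 7 genes; Kctd19 and Hdac1 were not matched. Of the 6 windows, those of Dnttip1 (chr2:164745765-164746064, plus strand) and Mideas (outer start chr12:84218832-84219131 and inner start chr12:84193966-84194265, both minus strand) lay under peaks of both wild-type libraries. The Hdac2 window (chr10:36974294-36974593, plus strand) lay partly under a replicate 2 peak alone. The Zfp541 window (chr7:16071595-16071894, plus strand) is printed as a contrast, since it had no peak in any library. It lies at a tabulated start 10070 bp inside the gene, and no window covered the 5′ end, where the strong Zfp541 peaks lay. Sequences run 5′ to 3′ on the strand of the gene, and capitals mark matches to the cAMP response element (TGACGTCA), the GC box (GGGCGG or its complement CCGCCC) and the TATA box (TATAAA or its complement TTTATA).
Dnttip1: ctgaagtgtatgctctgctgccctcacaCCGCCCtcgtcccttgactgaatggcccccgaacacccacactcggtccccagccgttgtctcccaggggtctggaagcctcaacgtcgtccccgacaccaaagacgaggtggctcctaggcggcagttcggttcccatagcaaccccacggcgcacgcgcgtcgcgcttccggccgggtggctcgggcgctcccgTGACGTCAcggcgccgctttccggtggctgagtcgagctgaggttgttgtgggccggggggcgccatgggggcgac
Mideas, outer start: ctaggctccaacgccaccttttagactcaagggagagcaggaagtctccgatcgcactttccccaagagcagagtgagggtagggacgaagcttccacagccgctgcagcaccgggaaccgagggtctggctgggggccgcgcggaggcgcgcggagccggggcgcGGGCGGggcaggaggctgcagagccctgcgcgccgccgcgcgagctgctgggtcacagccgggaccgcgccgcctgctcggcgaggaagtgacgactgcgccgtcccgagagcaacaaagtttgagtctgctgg
Mideas, inner start: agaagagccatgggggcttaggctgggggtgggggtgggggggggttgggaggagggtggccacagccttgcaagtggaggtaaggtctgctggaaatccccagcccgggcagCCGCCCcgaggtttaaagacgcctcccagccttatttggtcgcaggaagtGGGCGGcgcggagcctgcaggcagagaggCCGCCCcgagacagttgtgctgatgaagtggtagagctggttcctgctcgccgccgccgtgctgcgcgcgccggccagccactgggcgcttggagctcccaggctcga
Hdac2: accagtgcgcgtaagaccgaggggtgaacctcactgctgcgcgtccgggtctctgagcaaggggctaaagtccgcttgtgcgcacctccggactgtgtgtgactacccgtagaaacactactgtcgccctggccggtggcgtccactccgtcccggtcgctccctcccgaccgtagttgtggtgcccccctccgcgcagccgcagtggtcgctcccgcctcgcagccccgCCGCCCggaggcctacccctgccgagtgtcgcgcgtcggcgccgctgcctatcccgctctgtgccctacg
Zfp541, tabulated start: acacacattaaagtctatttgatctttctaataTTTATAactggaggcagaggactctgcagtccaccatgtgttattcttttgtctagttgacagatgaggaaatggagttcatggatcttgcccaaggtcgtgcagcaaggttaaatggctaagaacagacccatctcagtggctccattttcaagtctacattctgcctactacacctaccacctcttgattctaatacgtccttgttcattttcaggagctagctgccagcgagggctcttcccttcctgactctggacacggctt

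Dnttip1 held a complete cAMP response element, beginning 26 bases before its start, and a GC box whose first base lay at -222. This palindrome occurred in 2.23% of 21262 promoter windows of protein-coding genes. GC boxes were found in the Dnttip1, Hdac2 and both Mideas windows, with 3 in the inner Mideas window, and occurred in 46.2% of all windows. The Zfp541 window held no GC box, but had a TATA box match on the opposite strand at -217 and 2 E-boxes (CANNTG), which occurred in 12.6% and 69.0% of windows. The inner Mideas window, under peaks of both libraries, held 2 E-boxes as well. The Trerf1 window, which is not printed, held 2 CCAAT boxes, a motif present in 38.2% of windows. The NRF1 motif (GCGCATGC, in 3.51% of windows) was in none of the 6. Both strands were searched, and a match is a description of these letters only.

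Of the 7 genes, 6 had a peak in wild-type replicate 1, 6 in replicate 2 and 5 in both. Over all protein-coding genes these shares were 33.8%, 39.4% and 30.9%. Peaks of the replicates shared at least 1 bp near 4 genes, Zfp541, Dnttip1, Mideas and Hdac1, against 29.3% of all genes. At 3 of them, Zfp541, Dnttip1 and Mideas, overlapping peaks lay within 1 kb of a gene start, against 21.7% of all genes. A gene start here is a start in the promoter table or the 5′ end of the gene, or either end where no strand was given. The knockout list had no peak near any of the 7, and it had one near 0.34% of all genes. With peaks of a −log10 q of at least 5, Zfp541 and Mideas were the 2 genes left with peaks in both libraries, against 17.4% of all genes. Without replicate 2, 5 genes had a peak at a start, Kctd19 and Hdac2 among them, against 24.8% of all genes. The map of peaks shows where they lay.

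**Figure D1:**
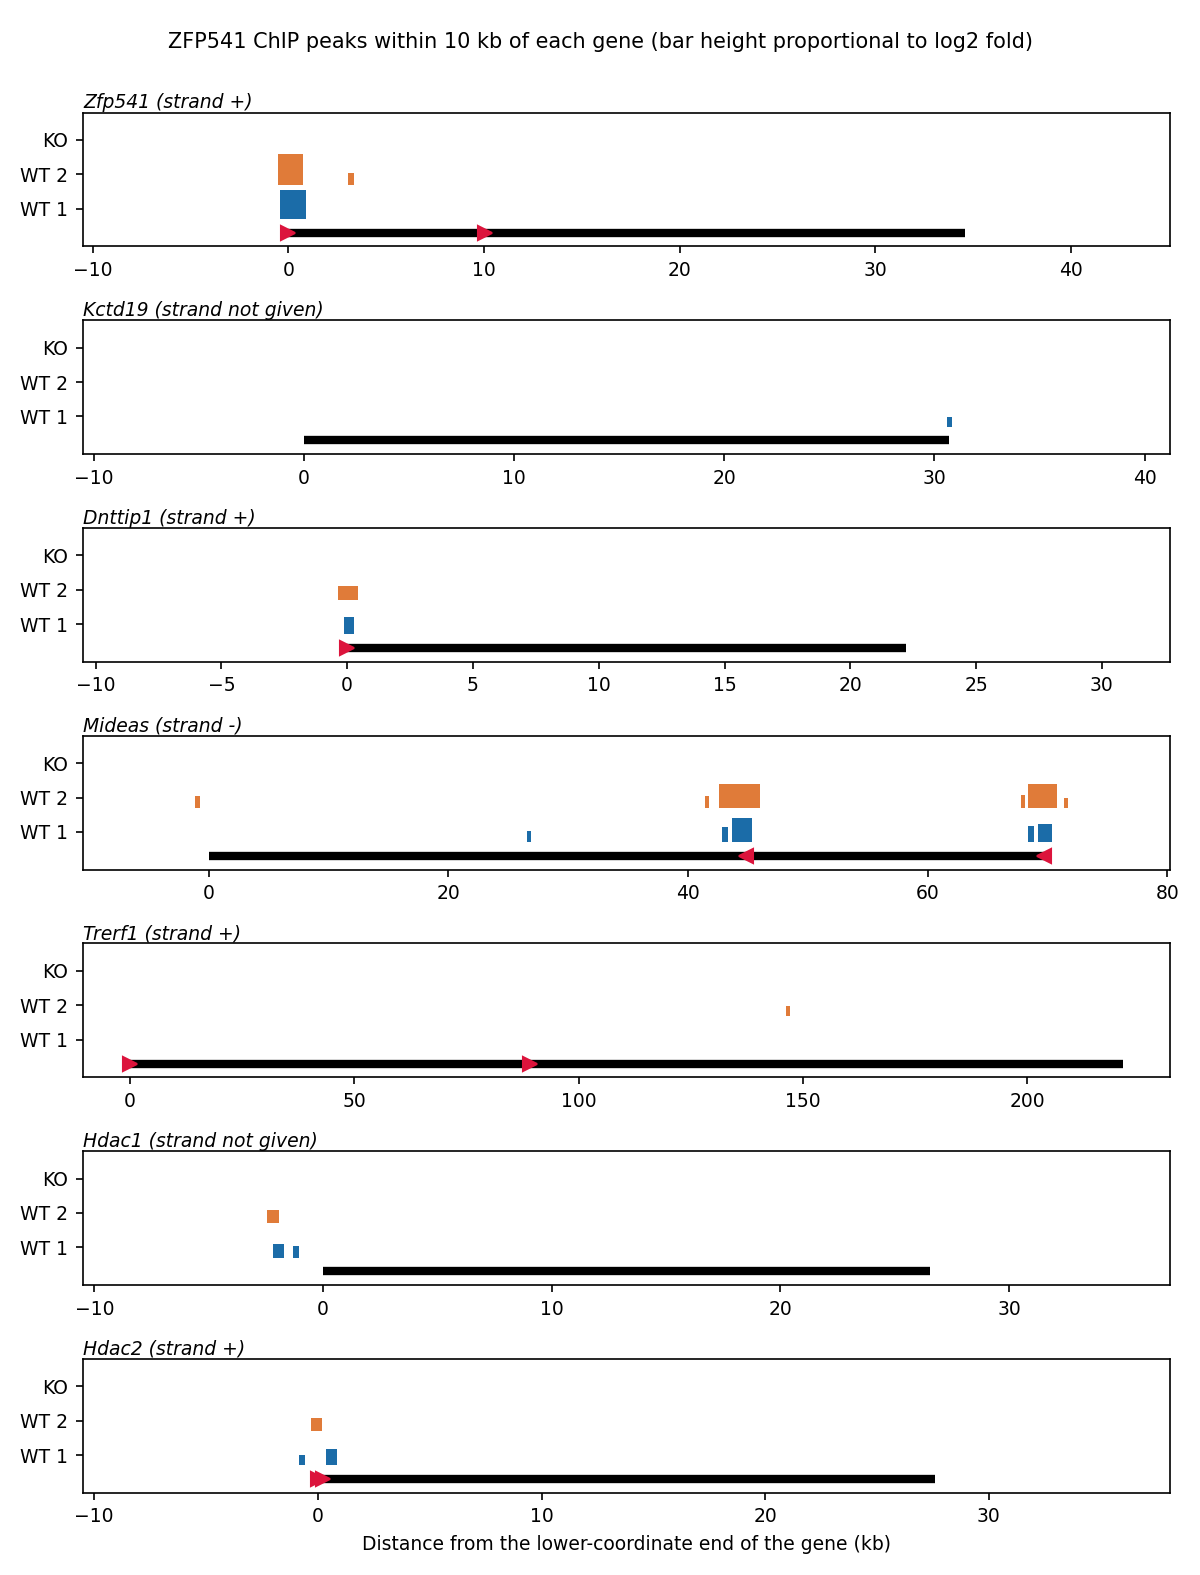
Peaks within 10 kb of each gene, by distance in kb from the lower-coordinate end of the gene. The black line is the gene body, red arrowheads are gene starts pointing in the direction of transcription, bar height is proportional to the log2 fold enrichment, and narrow peaks are widened to stay visible. Peaks of both wild-type replicates (WT 1 and WT 2) stack at the starts of Zfp541, Dnttip1 and Mideas, and the knockout row (KO) is empty at all 7 genes.

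The peak caller's fold and p could be turned back into the number of DNA fragments over each summit. MACS2 usually gives fold as fragments plus 1 over local background plus 1, and p from a Poisson law with that background. A whole number of fragments met both values, within 0.002 on the −log10 p scale, at 99.6% of replicate 1 peaks, 99.7% of replicate 2 peaks and 84.0% of knockout peaks, including all 24 peaks near the 7 genes. Every library had a lowest background, which was also the commonest: 1.80 fragments in replicate 1 and 1.98 in replicate 2. In the knockout library it was 1.93. The lowest background of the knockout library lay between those of the wild-type libraries, but stood behind 16.0% of its peaks, against 54.1% and 63.0%. Solved knockout peaks had a median of 67 fragments, against 13 and 12. Fewest fragments in any solved peak were 7 in each wild-type library and 9 in the knockout library, whose list therefore lacks the weakest class of peaks. Its lowest −log10 p was 4.47, against 2.71 and 2.54. The only peaks near Kctd19 (3.37) and Trerf1 (2.99) were below 4.47, so the lack of a knockout peak there is not informative. Intervals on fragments below are 95% exact Poisson intervals and cover counting error only.

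Zfp541 (chromosome 7, 16061775 to 16096340, plus strand) had the strongest peaks of the 7 genes, at the 5′ end of its own gene. The fold was 18.6 in replicate 1 (16061324 to 16062675, 1352 bp, −log10 p 55.4, −log10 q 50.4, score 503) and 22.2 in replicate 2 (16061236 to 16062535, 1300 bp, −log10 p 74.0, −log10 q 68.9, score 689). Summits lay 71 bp apart, 47 bp inside the gene and 24 bp before it. These peaks were among the highest of each list, at rank 28 of 8236 and rank 8 of 10371. Behind them stood 51 fragments (38.0 to 67.1) in replicate 1 and 65 (50.2 to 82.8) in replicate 2, each over the lowest background of its library. The knockout library had no peak here, although its list holds peaks with as few as 9 fragments, and its nearest peak was 638 kb away. Whether the knockout allele removes this sequence was not examined, and with 1 knockout library no test between genotypes was run.

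The promoter table places the start of Zfp541 10070 bp inside the gene, away from these peaks. The nearest edge of a peak was 9170 bp from that start in replicate 1. In replicate 2 it was 6705 bp away, at a small second peak (16064832 to 16065140, 309 bp, fold 3.36, −log10 p 4.37, −log10 q 1.48, score 14) with 9 fragments (4.12 to 17.1) and no counterpart in replicate 1. Of other genes, Bicra had the start closest to the strong summits, 13676 and 13605 bp away.

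Among 4735 protein-coding genes with overlapping wild-type peaks at a start, Zfp541 was at rank 7 by the mean percentile of fold over both libraries. The genes with the nearest pair of folds, measured as the distance between log2 folds over 2 libraries, were Atp2b1 (20.05 and 21.8, distance 0.11) and the neighbours Enoph1 and Hnrnpdl (17.1 and 23.2 for each, distance 0.13). Atp2b1 encodes a plasma membrane calcium pump and Hnrnpdl an RNA-binding protein.

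Kctd19 (chromosome 8, 105382801 to 105413502), which encodes the partner protein of ZFP541, had 1 weak peak in 1 library. Replicate 1 had a fold of 2.66 (105413415 to 105413640, 226 bp, −log10 p 3.37, −log10 q 0.54, score 5) at the higher-coordinate end of the gene, and replicate 2 and the knockout had none. The summit lay 112 bp outside Kctd19 and 16 bp from the end of Lrrc36, which begins 96 bp away, so the peak cannot be assigned to either gene. It rested on 10 fragments (4.80 to 18.4) over a local background of 3.14, and its fold was at percentile 3.88 of replicate 1 peaks. Its q-value was above 0.05.

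Mideas (chromosome 12, 84149168 to 84218881, minus strand), the MiDAC scaffold gene, had peaks at 2 starts 24866 bp apart. At the inner start the fold was 11.4 in replicate 1 (84192796 to 84194486, 1691 bp, −log10 p 28.0, −log10 q 23.7, score 236) and 11.4 in replicate 2 (84191767 to 84195134, 3368 bp, −log10 p 29.2, −log10 q 25.04, score 250). Summits of these peaks lay 1008 and 944 bp downstream of the inner Mideas start. They were closer to the start of Gm31513, a gene on the opposite strand, at 182 and 246 bp. The replicate 2 peak also covered a second replicate 1 peak (84191999 to 84192536, 538 bp, fold 4.55, −log10 p 7.05, −log10 q 3.81, score 38, 12 fragments).

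At the outer start, which is the 5′ end of Mideas, the fold was 6.52 in replicate 1 (84218333 to 84219517, 1185 bp, −log10 p 15.9, −log10 q 12.1, score 121) and 11.4 in replicate 2 (84217566 to 84219926, 2361 bp, −log10 p 29.2, −log10 q 25.04, score 250). Summits lay 28 and 70 bp before the start and 42 bp from each other. Replicate 1 had a second peak beside it (84217558 to 84218015, 458 bp, fold 5.0, −log10 p 8.09, −log10 q 4.75, score 47, 13 fragments), which the replicate 2 peak also overlapped. This start lies inside Gm46319, a gene on the opposite strand whose own start was 2478 and 2520 bp from the summits.

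In replicate 1 the fold at the inner Mideas start was higher than at the outer one, whereas the fragment numbers were close. They were 31 (21.1 to 44.0) at the inner and 26 (17.0 to 38.1) at the outer start, with intervals that overlap. The local background was 1.80 at the inner and 3.14 at the outer start. In replicate 2 both starts had 33 fragments (22.7 to 46.3) over the same background of 1.98. Mideas was at rank 347 of the 4735 genes by its highest folds, which in replicate 1 come from the inner peak. Besides Gm31513, which shares the inner peaks, the nearest pairs of folds belonged to Rbmxl2 and Them6 (11.4 and 11.5 for each, distance 0.0078 over 2 libraries).

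Mideas also had 5 weak peaks seen in 1 library each. Replicate 1 had one of fold 3.06 inside the gene, 18190 bp downstream of the inner start. In replicate 2 the folds were 3.36 at a site 148 bp from the start of Pnma1, 3.36 and 3.69 inside Mideas and 2.69 before its 5′ end. They rested on 7 to 10 fragments each. The nearest knockout peak was 662 kb from the gene.

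Dnttip1 (chromosome 2, 164746015 to 164768220, plus strand), which encodes the subunit that organises MiDAC, had a moderate peak at its start in both libraries. The fold was 6.07 in replicate 1 (164745895 to 164746287, 393 bp, −log10 p 10.9, −log10 q 7.41, score 74) and 4.03 in replicate 2 (164745633 to 164746451, 819 bp, −log10 p 5.91, −log10 q 2.86, score 28). The replicate 1 peak lay within the replicate 2 peak, and the summits were 20 bp before and 154 bp after the start. Fragments numbered 16 (9.15 to 26.0) and 11 (5.49 to 19.7), with intervals that overlap. The replicate 2 peak covered all 300 bases of the promoter printed above and the replicate 1 peak 170 of them, with the cAMP response element inside both. Wfdc3, on the opposite strand, has its 5′ end 21 bp from Dnttip1, 1 and 175 bp from the summits, so the peaks cannot be assigned to Dnttip1 alone. By mean percentile of fold, Dnttip1 was at rank 3013 of the 4735 genes.

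Trerf1 (chromosome 17, 47140942 to 47362325, plus strand) encodes the other MiDAC scaffold and is the longest of the 7 genes at 221384 bp. Its only peak was in replicate 2 (47287475 to 47287740, 266 bp, fold 2.69, −log10 p 2.99, −log10 q 0.31, score 3), 57347 bp downstream of the tabulated start. It rested on 7 fragments (2.81 to 14.4), the fewest of any solved peak in that list, and its q-value was above 0.05. Neither Trerf1 start had a peak in any library.

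Hdac2 (chromosome 10, 36974297 to 37001889, plus strand), a catalytic subunit, had peaks of both replicates around its start that did not touch. Replicate 1 had a fold of 5.36 after the start (36974639 to 36975169, 531 bp, −log10 p 9.02, −log10 q 5.61, score 56) and 2.78 before it (36973472 to 36973707, 236 bp, −log10 p 3.27, −log10 q 0.44, score 4). The replicate 2 peak, of fold 3.69 (36973975 to 36974468, 494 bp, −log10 p 5.12, −log10 q 2.15, score 21), lay between them, 170 bp from the first and 267 bp from the second. These peaks rested on 14 (7.65 to 23.5), 8 (3.45 to 15.8) and 10 (4.80 to 18.4) fragments. The Hdac2 promoter window therefore had 175 of its 300 bases under a replicate 2 peak and none under a replicate 1 peak.

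Hdac1 (chromosome 4, 129516104 to 129542646), the other catalytic subunit, had no peak in its gene body or within 1 kb of its ends. Overlapping peaks of fold 4.09 in replicate 1 (129513901 to 129514391, 491 bp, −log10 p 6.01, −log10 q 2.86, score 28) and 3.69 in replicate 2 (129513636 to 129514183, 548 bp, −log10 p 5.12, −log10 q 2.15, score 21) lay 2098 and 2127 bp below its lower-coordinate end by their summits. They rested on 11 (5.49 to 19.7) and 10 (4.80 to 18.4) fragments, and the summits were 29 bp apart. Both summits were inside Marcksl1, a separate gene 123 bp from Hdac1, and lay 425 and 396 bp from its start. A further replicate 1 peak of fold 3.21 (129514791 to 129515054, −log10 p 3.96, −log10 q 1.01, score 10, 8 fragments) was inside Marcksl1 as well. The Hdac1 entries in the counts above thus come from peaks at a neighbouring gene.

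**Figure D2:**
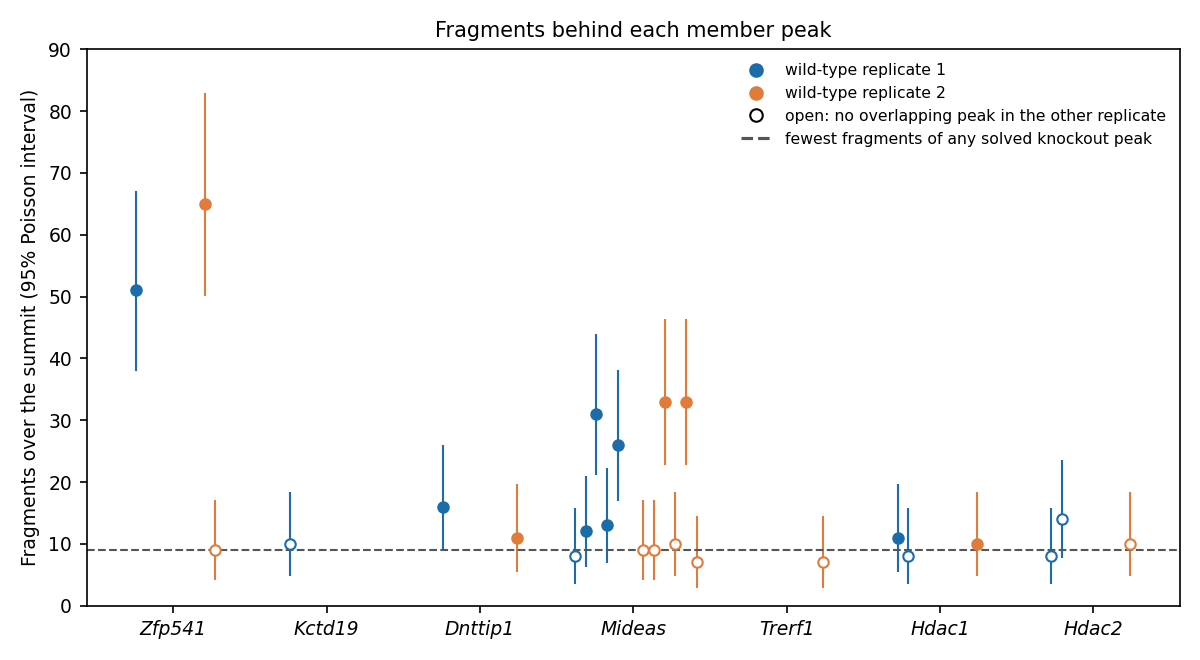
Fragments over the summit of each peak near the 7 genes, with 95% exact Poisson intervals; blue is wild-type replicate 1, orange is wild-type replicate 2, and open circles have no overlapping peak in the other replicate. Zfp541 stands at 51 and 65 fragments and Mideas at up to 33, whereas all 12 open circles lie between 7 and 14, close to the dashed line at 9, the fewest fragments of any knockout peak that could be solved.

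The 24 wild-type peaks near the 7 genes fell into 12 with an overlapping peak in the other replicate and 12 without. Those without one had folds of at most 5.36 and 7 to 14 fragments. The overlapping ones went down to a fold of 3.69 and 10 fragments, near Hdac1 in replicate 2, so the ranges overlap. Median width was 274.5 bp for the peaks without a partner, against 1002 bp for the overlapping ones. Whether width itself made overlap more likely was not tested. Over the whole lists, each replicate 1 peak was paired with its overlapping replicate 2 peak of highest fold, if any. Where several overlapped, this gives the highest ratio, and a wide replicate 2 peak can recur. In these 6074 pairs the replicate 2 fold was at the median 1.11 times the replicate 1 fold. Of the ratios, 95% lay between 0.587 and 2.97. The ratios at the strongest pairs, 1.19 for Zfp541, 0.999 for the inner and 1.75 for the outer Mideas start, 0.663 for Dnttip1 and 0.904 near Hdac1, all lay inside that range. The further Mideas pairs, at 2.51 and 2.28, did so too.

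**Figure D3:**
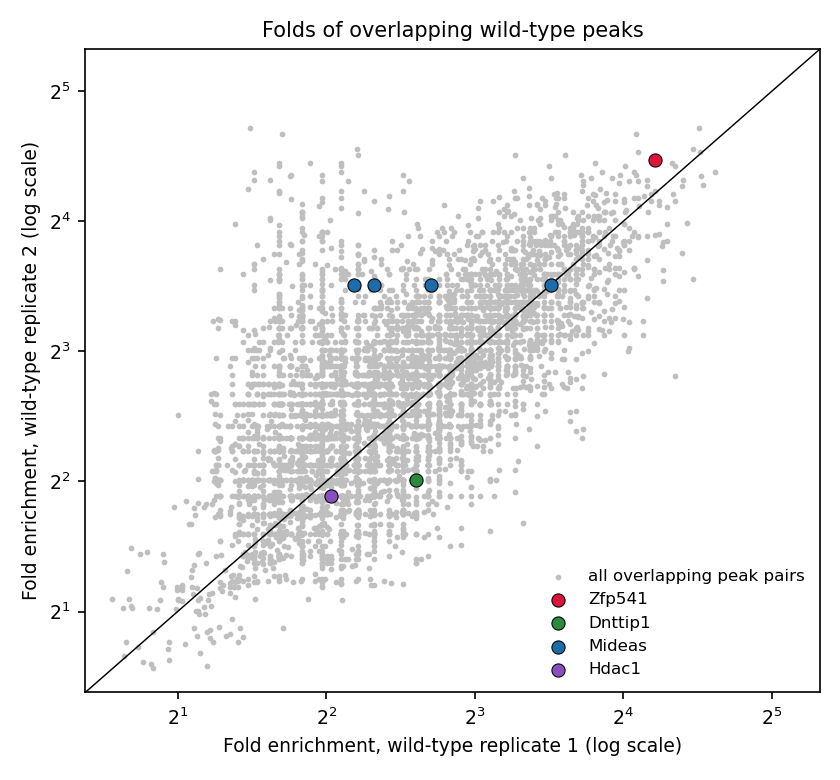
Fold enrichment of overlapping peaks in wild-type replicate 1 (x axis) and replicate 2 (y axis), both on log scales with a line of equality. Grey points are 6074 pairs, each a replicate 1 peak with its overlapping replicate 2 peak of highest fold. Coloured points are the pairs near Zfp541, Dnttip1, Mideas and Hdac1. Zfp541 lies near the upper right end of all pairs, and Dnttip1 and Hdac1 lie in the lower part. The 4 Mideas pairs share 1 replicate 2 value. There 2 wide replicate 2 peaks, both of fold 11.4, each meet 2 replicate 1 peaks.

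Over all promoter windows, those under peaks in both libraries held more CpG dinucleotides at the median than those under none. The 300-base windows held 32 CpGs at Dnttip1, 33 at the outer and 20 at the inner Mideas start, and 36 at Hdac2. The windows without a peak held 4 at the tabulated start of Zfp541, 10070 bp inside the gene, and 5 at Trerf1. No window covered the 5′ end of Zfp541, where its strong peaks lay, so CpGs there were not counted. Over all 21262 windows the median was 13 CpGs, with 31 in the 3605 windows overlapped in both libraries and 7 in the 15859 windows overlapped in neither. The share overlapped in both was 0.182% at 0 to 4 CpGs, 21.1% at 20 to 24, 46.9% at 30 to 34 and 55.1% at 35 to 39. Among the 5263 windows with 25 or more CpGs it was 49.1%, and the knockout list overlapped none of these windows. Elsewhere the knockout list overlapped 1 of the 4830 windows with 5 to 13 CpGs and none with 0 to 4 or 14 to 24. Its overlap with promoter windows was thus rare at any CpG number. The part of base composition in the peaks was not tested.

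**Figure D4:**
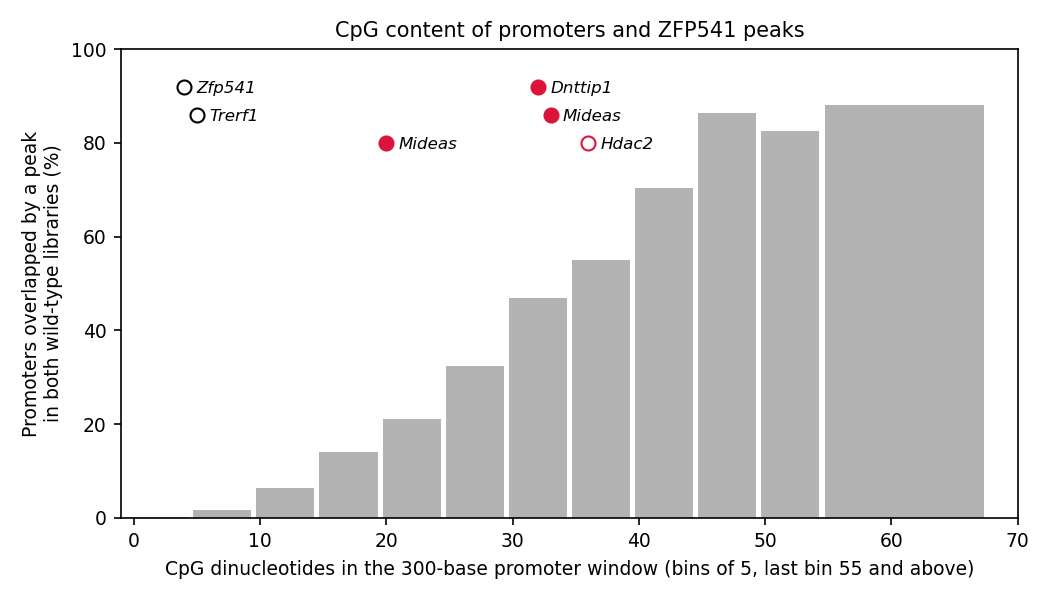
Share of promoter windows overlapped by a peak in both wild-type libraries (y axis, %) by the number of CpGs in the window (x axis, bins of 5 with 55 to 67 joined), over 21262 windows. Circles mark the 6 windows of the 7 genes at their CpG number, at arbitrary heights; filled red is a peak in both libraries, open red in 1 and open black in none. The bars rise from 0.182% in the lowest bin to 88.1% in the highest, and the Zfp541 and Trerf1 windows lie in the 2 lowest bins. The Zfp541 window is at its tabulated start, not at the 5′ end where its strong peaks lay.

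Other genes of class I deacetylase complexes were also taken from lists. Of 10 genes for other ELM2-SANT scaffolds, 8 had overlapping wild-type peaks at a start, against 21.7% of all protein-coding genes. Their median folds were 6.12 and 7.47, against medians of 5.71 and 6.38 over the 4735 genes. The highest were Mier1 (13.6 and 10.7), Mier2 (11.2 and 11.1) and Rere (6.07 and 9.11), whose products bring HDAC1 and HDAC2 to chromatin. Mideas, at 11.4 and 11.4 by its inner peaks, was close to Mier2. Those inner peaks had their summits closer to the start of Gm31513, and at the outer Mideas start the folds were 6.52 and 11.4. Zfp541 was above all 8. Of 32 further subunit genes of NuRD, SIN3, CoREST and NCoR complexes, 21 (65.6%) had such peaks, against the same 21.7%, with median folds of 6.79 and 6.94. Among the highest were Gatad2a (11.1 and 17.5) and Tbl1xr1 (13.9 and 8.36), which belong to NuRD and NCoR complexes. No gene of either list had a knockout peak within 10 kb, against 0.34% of all protein-coding genes. Of the promoter windows matched, 7 of 10 in the first list and 21 of 36 in the second had 25 or more CpGs, as did 3 of 6 for the 7 genes and 24.8% of all 21262 windows.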

How the data were processed

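Peak lists of 3 ChIP libraries (WT ZFP541 replicates 1 and 2, and 1 Zfp541-/- library) were used. Per the submitters' processing notes, peaks were made with MACS2 2.2.6 among the tools, beside Bowtie2 2.3.5, cutadapt 2.6, deepTools 3.5.0, Picard and SAMtools 1.10, on mm10. Settings, control and threshold were not given in the sources used here. The deposited fold is a ratio over the caller's background, the deposited −log10 p and −log10 q are the caller's, and the deposited score equals −log10 q times 10 without decimals. The authors called each library separately. Total reads are unknown.

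Genes (21775 protein-coding) came from RefSeq GRCm38.p6. The 108 protein-coding entries before 3 Mb on autosomes and X, which carry scaffold coordinates, were left out. Strand came from the promoter table; 4284 genes had none, and either end was used for them. Fragments were solved from fold and p. On simulated peaks 100% of 2000 were recovered. These were made with the same formulas, so this checks the solving step and not whether the deposited values follow the formulas. No test was run: members and lists were chosen with earlier results of these data known, and counts stand beside the share over all genes. Named were all 7 members, up to 3 genes of each list by mean percentile of fold, and the 3 nearest pairs of folds to Zfp541 and to Mideas, of which 1 list gene is not reported here. The alternatives tried changed q-value, overlap, windows and libraries. Scripts ran in Python 3.11.15 (scipy 1.17.1, matplotlib 3.10.9, pandas 2.3.3, numpy 2.4.6).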

Additional observations from a re-analysis of the deposited data

How the results depend on the processing

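Requiring a −log10 q of at least 5 or of at least 10 left 2 of the 7 genes, Zfp541 and Mideas, with peaks in both wild-type libraries, 2 with overlapping peaks and 2 with overlapping peaks at a start. Over all genes the shares were 17.4% and 10% for peaks in both libraries and 17.2% and 9.97% for overlapping peaks. At a start they were 12.3% and 7.03%. With a reciprocal overlap of at least 50%, Dnttip1 no longer counted. This left 3 genes with overlapping peaks and 2 at a start, against 21.9% and 15.8% of all genes. With 1 of the wild-type replicates left out, whichever it was, 6 genes had a peak. Over all genes the share was 39.4% without replicate 1 and 33.8% without replicate 2. At a start, 4 genes had one without replicate 1, against 28.9% of all genes. Leaving out replicate 2 gave 5, Kctd19 and Hdac2 among them, against 24.8% of all genes. With starts of the promoter table only, an alternative chosen after seeing the data, Zfp541 did not count and 2 genes were left. Within 50 kb, 7 genes had peaks in both libraries, against 48.3% of all genes. No knockout peak was found within 50 kb of them, against 0.776% of all genes, also chosen after seeing the data. Highest folds were compared in the 54 alternatives in which a peak was left, and 50 were as reported. Cases in which a filter left no peak, such as Kctd19 and Trerf1 at a q-value of at most 0.05, are not among the 54. Such a filter only drops peaks and changes no fold. The other 4 had the 50 kb window, which takes in peaks of further genes. There the fold for Mideas was 1.16 and 1.26 times the reported one in replicates 1 and 2. In replicate 2 the fold was 2.09 times the reported one for Hdac1 and 3.63 times for Trerf1. No paired analysis was possible because no result comes from a test and the knockout has 1 library. For 11 of the 12 peaks seen in 1 library, the interval on fragments includes 7, the fewest called. The exception is the Hdac2 peak of 14 fragments. Some overlapping peaks have such intervals too: Dnttip1 in replicate 2 (from 5.49), the weaker Mideas peaks in replicate 1 (from 6.20 and 6.92) and those near Hdac1 (from 5.49 and 4.80).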
